A study of Homo sapiens with 12 samples.

Results

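The transcripts described are those of the 6 human DNA topoisomerase genes TOP1, TOP1MT, TOP2A, TOP2B, TOP3A and TOP3B and of the tyrosyl-DNA phosphodiesterase genes TDP1 and TDP2. The members were the rows of the expression table that carry these symbols, and all 8 were found among 25365 gene names. The cells were A549, an epithelial line from a human lung adenocarcinoma, either wild type or PARP3-/-. They received vehicle (DMSO) or 1 μM pyridostatin, a small molecule that binds and stabilises G-quadruplex (G4) DNA, for 24 h before RNA was taken. The 4 groups were therefore wild type with vehicle, PARP3-/- with vehicle, wild type with pyridostatin and PARP3-/- with pyridostatin. Each had 3 biological replicates, which gave 12 RNA-seq libraries. By the study's methods, PARP3 was disrupted with a pair of Cas9 guides and edited cells were cloned by dilution, so a difference between genotypes and a difference between cell clones cannot be told apart. No other allele or agent was named for any group.

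Topoisomerases relieve the twisting and tangling of DNA by cutting it through a tyrosine that stays bound to the broken end until the break is resealed. The type IB enzymes (TOP1 in the nucleus, TOP1MT in mitochondria) and the type IA enzymes (TOP3A and TOP3B) cut a single strand, whereas the type II enzymes TOP2A and TOP2B cut both strands and pass another duplex through the gap. When the cut complex is trapped, by a drug or an unusual DNA structure, TDP1 removes the tyrosine remnant mainly from 3′ ends and TDP2 from 5′ ends. TOP2A is known as the isoform of dividing cells and TOP2B as the isoform found in cycling and resting cells alike.

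Values are FPKM, fragments scaled to the length of the transcript and to the mapped fragments of the library, so that levels are per length. Tests were made with limma on log2(FPKM + 1) over the 11881 genes whose mean reached 1 FPKM, and "adjusted p" is the Benjamini-Hochberg value over all of them, with a call at under 0.05. All 8 members passed this filter. Fold changes are on the log2(FPKM + 1) scale, which understates changes of low genes. The p-values measure the spread between the replicates of this one experiment.

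The deepest library had 1.42 times the relative depth of the shallowest, as read from the steps between low values, of which 10.4% to 11.9% lay at the step used. All 6 epithelial markers had a mean of at least 1 FPKM, the lowest at 1.51 and the highest at 3036. That level was also reached by 1 of 4 immune markers (CD14, 4.29) and 1 of 3 fibroblast markers (COL1A1, 1.08). It was reached by 1 of 2 neural markers too (RBFOX3, 2.98), and by 0 of 3 endothelial markers. PARP3 itself was at 3.73 ± 0.293 FPKM (SD, n = 3) in wild type and 4.41 ± 0.447 in PARP3-/- with vehicle, and at 3.79 ± 0.243 and 4.58 ± 0.245 with pyridostatin. It was not lower in the libraries labelled PARP3-/- (log2 fold change 0.21 averaged over treatments, adjusted p = 0.0154). A value over a whole transcript does not test for the loss of the stretch between the cuts, so every direction below is between libraries as labelled. Replicate 2 of wild type with vehicle stood apart from replicates 1 and 3. Its FPKM summed to 563458 against 492822 to 525110 in the other 11, and its transcripts over 5000 bases lay lower by a median log2 difference of -0.19 while those under 1500 bases lay higher by 0.23. Many of the results that it touches are given with and without it, though not all. Across all genes, 68% of the calls between genotypes with vehicle were higher in PARP3-/-, and 51.7% after the medians of the libraries were made equal (a common median). For pyridostatin against vehicle averaged over genotypes these shares were 55.3% and 39.9%.

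The results turned on TDP2 and on the balance of TOP2A and TOP2B, and the DNA upstream of their starts is shown for reference (RefSeq, GRCh38.p14, 5′ to 3′ on the strand of each gene, ending at the base before the start). A promoter window was found for 7 of the 8 genes, the exception being TOP1MT. TDP2 is shown because it has a divergent neighbour, ACOT13, whose start lies 178 bases away on the opposite strand. The 177 bases between both starts (chr6:24666900-24667076, minus strand) are given with the letters GGGCGG, on either strand, in capitals. The TOP2A (chr17:40417897-40418146, minus strand) and TOP2B (chr3:25664908-25665157, minus strand) windows are the 250 bases upstream, with CCAAT on either strand in capitals.
TDP2: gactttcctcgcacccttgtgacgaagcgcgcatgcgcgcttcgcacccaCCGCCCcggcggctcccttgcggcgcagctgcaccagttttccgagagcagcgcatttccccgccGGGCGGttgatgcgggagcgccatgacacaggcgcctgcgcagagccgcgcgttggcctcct
TOP2A: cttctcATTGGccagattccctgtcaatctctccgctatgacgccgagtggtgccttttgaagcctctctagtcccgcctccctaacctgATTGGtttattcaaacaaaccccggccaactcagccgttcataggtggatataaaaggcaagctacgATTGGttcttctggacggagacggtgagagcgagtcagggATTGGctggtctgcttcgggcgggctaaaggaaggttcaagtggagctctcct
TOP2B: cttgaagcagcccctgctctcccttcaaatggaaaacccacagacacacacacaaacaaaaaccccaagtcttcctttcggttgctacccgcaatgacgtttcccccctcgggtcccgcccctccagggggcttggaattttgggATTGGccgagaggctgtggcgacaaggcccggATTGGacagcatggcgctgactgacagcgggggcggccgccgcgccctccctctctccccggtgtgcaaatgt

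TOP2A held 4 copies of CCAAT and TOP2B held 2, and the other 5 members with a window held 0. CCAAT was found in 33.0% of 27305 promoter windows of the same length and GGGCGG in 42.2%. The stretch between TDP2 and ACOT13 held GGGCGG in 2 places and no CCAAT. Because pyridostatin binds G4 DNA, a G4 pattern was also searched, meaning at least 4 runs of GGG parted by loops of 1 to 7 bases, on both strands. It was found in 0 of the 7 members' windows and in 22.3% of all windows. These matches describe letters only, and their absence says nothing of structures or factors elsewhere in the genes.

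All members were expressed in every library, over a wide span of levels. TOP2A was highest with a mean of 155 FPKM over the 12 libraries, above 95.9% of the genes tested. TOP1 followed at 42.1 FPKM, TOP2B at 30.0, TDP2 at 26.2, TOP1MT at 17.6, TDP1 at 10.9, TOP3A at 10.6 and TOP3B at 6.31. In this order TOP2B and TDP2 were not separated (TOP2B was above TDP2 in 11 of 12 libraries and their ranges overlapped), nor were TDP1 and TOP3A (8 of 12). Every other neighbouring pair had ranges apart over all 12 libraries. Thus each family had a leading gene: TOP2A over TOP2B, TOP1 over TOP1MT, TOP3A over TOP3B and TDP2 over TDP1. The highest library of a gene exceeded its lowest by 1.19 times for TOP1MT and 1.39 times for TDP2, the extremes of the set. Without wild-type vehicle replicate 2, TOP2A had the narrowest span, 1.11 times, and that of TDP2 was still 1.39 times.

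**Figure D1:**
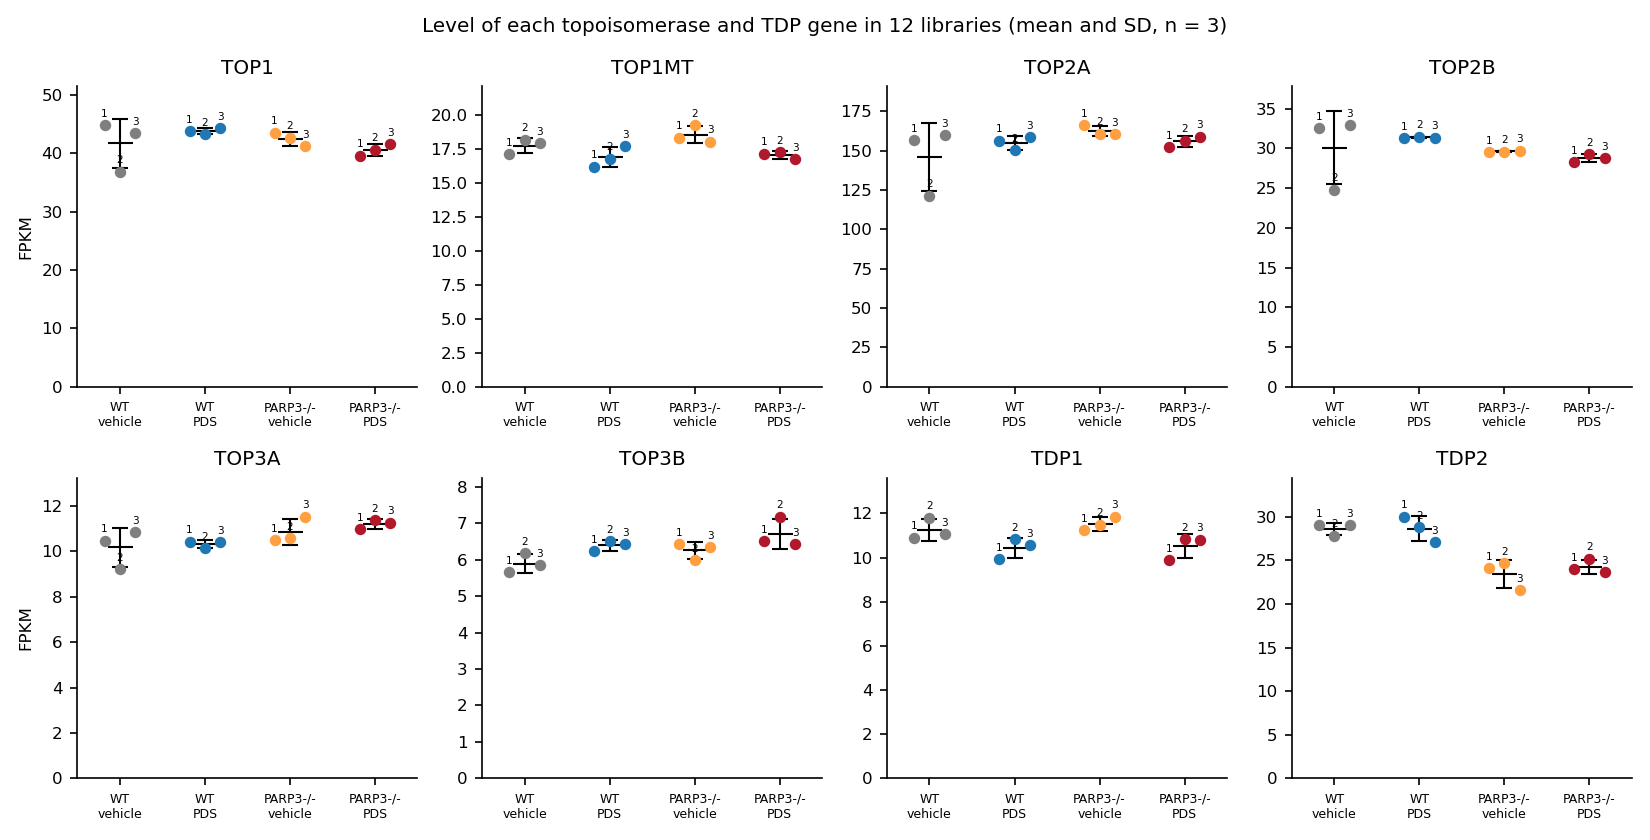
FPKM of the 8 genes in each library (points, numbered by replicate), with the mean and SD of each group (n = 3). WT is wild type and PDS is pyridostatin, and each panel starts at 0 on its own linear axis. TDP2 lay lower in both PARP3-/- groups, and wild-type vehicle replicate 2 was the lowest library of TOP1, TOP2A, TOP2B and TOP3A.

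TDP2 was the 1 member called between genotypes, and it was lower in PARP3-/-. With vehicle its levels were 29.0, 27.8 and 29.0 FPKM in wild type and 24.1, 24.6 and 21.6 in PARP3-/-. With pyridostatin they were 30.0, 28.8 and 27.1 FPKM in wild type and 24.0, 25.2 and 23.7 in PARP3-/-. The 6 wild-type libraries ran from 27.1 to 30.0 FPKM and the 6 PARP3-/- libraries from 21.6 to 25.2, so that the genotypes did not overlap under either treatment. Mean FPKM of TDP2 fell by 18.1% with vehicle and by 15.2% with pyridostatin. The log2 fold change was -0.28 with vehicle (SE 0.0540, 95% CI -0.398 to -0.159, adjusted p = 0.00754). With pyridostatin it was -0.23 (SE 0.0540, 95% CI -0.348 to -0.109, adjusted p = 0.0207). Averaged over treatments it was -0.25 (adjusted p = 8.17e-04). Without wild-type vehicle replicate 2 the same comparisons gave -0.30, -0.23 and -0.26, each still called. The vehicle call was lost when only the libraries of that comparison were fitted (adjusted p = 0.0602). The pyridostatin call was lost without wild-type pyridostatin replicate 1 (adjusted p = 0.0915) or 2 (0.0543) and without PARP3-/- pyridostatin replicate 1 (0.0672) or 3 (0.0829). The averaged difference was called under every alternative listed in the closing section that applied to it.

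Such a call was not rare among all genes. With vehicle, 9.41% of the genes tested were called between genotypes and 3.01% were called lower in PARP3-/-. With pyridostatin these shares were 10.9% and 3.85%, and averaged over treatments 19.1% and 6.95%. One called member of 8 was therefore near the share of all genes, and the result is about TDP2 and not about the set. Groups of 6 and 6 libraries did not overlap between genotypes in 9.67% of the genes tested.

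ACOT13, an acyl-CoA thioesterase gene of mitochondria that starts 178 bases from TDP2, was measured as its divergent neighbour. Its levels with vehicle were 7.37, 8.52 and 7.94 FPKM in wild type and 6.51, 6.78 and 6.81 in PARP3-/-. With pyridostatin they were 8.18, 7.53 and 8.61 FPKM in wild type and 6.34, 5.85 and 6.05 in PARP3-/-. The genotypes did not overlap within either treatment, as for TDP2, which was so for 24.2% of all genes tested with vehicle and 35.2% with pyridostatin. The log2 fold change of ACOT13 was -0.21 with vehicle (SE 0.0580, adjusted p = 0.0432) and -0.36 with pyridostatin (SE 0.0580, adjusted p = 0.00231). Averaged over treatments it was -0.29 (adjusted p = 5.53e-04). The vehicle call was lost under 13 of 20 alternatives, among them the replicate block (adjusted p = 0.0728), only the libraries of the comparison (adjusted p = 0.149) and leaving out wild-type vehicle replicate 2 (-0.17, adjusted p = 0.0773). The other 2 calls held without that replicate (-0.36 and -0.26, adjusted p = 9.20e-04 and 6.44e-04). SMCR8, which starts 299 bases from TOP3A on the opposite strand, was not called in any comparison.

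**Figure D2:**
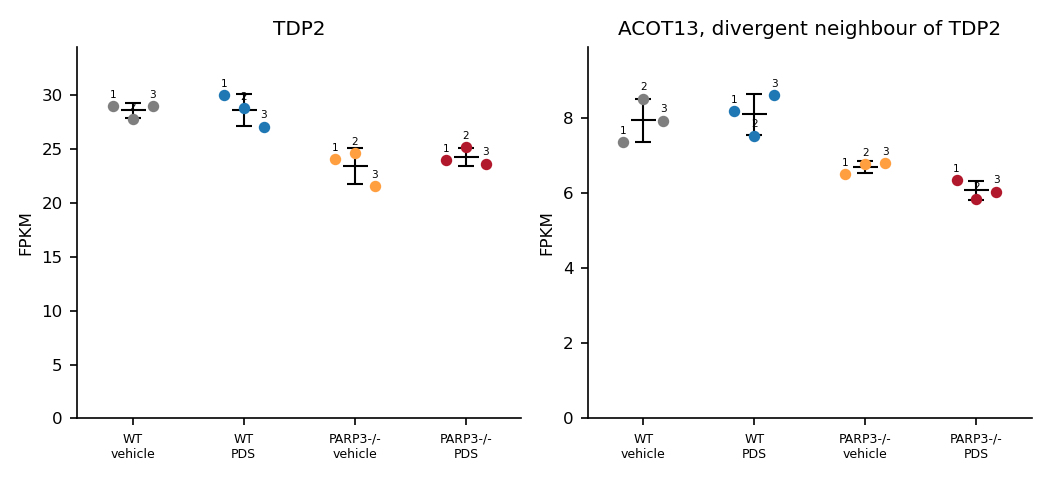
FPKM of TDP2 (left) and of its divergent neighbour ACOT13 (right) in each library, with mean and SD (n = 3) and linear axes from 0. In both genes all 6 PARP3-/- libraries lay below the 6 wild-type libraries, with TDP2 at 21.6 to 25.2 against 27.1 to 30.0 FPKM.

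TDP2 did not move with pyridostatin beyond the replicate spread. Its log2 fold change was 0.00 in wild type (95% CI -0.119 to 0.119) and 0.05 in PARP3-/- (95% CI -0.0694 to 0.169). Among the genes whose log2 levels followed TDP2 most closely over the 12 libraries were AK4 (Pearson r = 0.948), a mitochondrial adenylate kinase gene, and FASTKD2 (r = 0.938), which encodes a mitochondrial RNA-binding protein. The points of such a correlation share libraries and fall by genotype, so these values only describe likeness. AK4 was at 1.81 to 2.15 FPKM in wild type and at 1.39 to 1.64 in PARP3-/-.

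TOP2A and TOP2B were each not called between genotypes, but their ratio differed. TOP2A was at 157, 121 and 160 FPKM in wild type and 166, 161 and 160 in PARP3-/- with vehicle. With pyridostatin it was at 156, 150 and 159 FPKM in wild type and 152, 156 and 159 in PARP3-/-. The vehicle groups did not overlap, as was so for 24.2% of all genes tested, and the pyridostatin groups did. The low wild-type value was that of replicate 2. The log2 fold change of TOP2A between genotypes was 0.16 with vehicle (95% CI -0.0242 to 0.352, adjusted p = 0.306) and 0.01 with pyridostatin (adjusted p = 0.977). Leaving out wild-type vehicle replicate 2, it was 0.04 with vehicle (adjusted p = 0.510) and 0.01 with pyridostatin (adjusted p = 0.888).

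TOP2B was at 32.6, 24.8 and 32.9 FPKM in wild type and 29.6, 29.6 and 29.7 in PARP3-/- with vehicle. With pyridostatin it was at 31.3, 31.5 and 31.3 FPKM in wild type and 28.2, 29.3 and 28.8 in PARP3-/-. Apart from wild-type vehicle replicate 2, every wild-type library lay above every PARP3-/- library. Of all genes tested, 35.2% were without overlap between genotypes with pyridostatin and 9.67% over 6 and 6 libraries. The share with that replicate left out was not measured, so the separation is not shown to be particular to TOP2B. The log2 fold change was -0.01 with vehicle (adjusted p = 0.967) and -0.12 with pyridostatin (adjusted p = 0.428). Without that replicate TOP2B was called lower in PARP3-/- with vehicle (-0.14, adjusted p = 0.00507), with pyridostatin (-0.12, adjusted p = 0.00461) and averaged over treatments (-0.13, adjusted p = 3.44e-04). In those fits the shares of all genes called were 14%, 19.3% and 27.2%. Wild-type vehicle replicate 2 is not part of the pyridostatin comparison. It enters there only through the spread estimated over all 4 groups, the filter and the adjustment over all genes. The log2 difference of replicate 2 from the mean of replicates 1 and 3 was -0.38 for TOP2A and -0.39 for TOP2B. Their longest transcripts have 5758 and 5389 bases. The difference was -0.19 for TOP3A (4116 bases), 0.09 for TOP3B (4163), -0.25 for TOP1 (3738) and 0.10 for TDP1 (3702). It was -0.06 for TDP2 (2120) and 0.05 for TOP1MT (2029). A link to transcript length was not tested for these genes.

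The ratio of TOP2A to TOP2B within a library set the low replicate beside the others. It was 4.81, 4.89 and 4.86 in wild type with vehicle and 4.99, 4.77 and 5.06 in wild type with pyridostatin. In PARP3-/- it was 5.62, 5.44 and 5.40 with vehicle and 5.39, 5.34 and 5.51 with pyridostatin. All 6 PARP3-/- libraries thus lay above all 6 wild-type libraries, and wild-type vehicle replicate 2 stayed within the range of the wild-type libraries. Of single genes tested, 9.67% were without overlap between genotypes in either direction. The share among ratios of other gene pairs was not measured, so the separation is not shown to be particular to this pair. The means were 4.85 ± 0.0381 and 4.94 ± 0.152 in wild type against 5.49 ± 0.119 and 5.42 ± 0.0877 in PARP3-/- (SD, n = 3). The log2 ratio was 0.16 higher in PARP3-/-, a factor of 1.11, with p = 0.005 in a two-sided exact permutation test of genotype within treatment, the smallest p that its 400 arrangements can give. Without wild-type vehicle replicate 2 the difference was also 0.16. Pyridostatin moved the log2 ratio by 0.0033 (exact permutation p = 0.86).

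**Figure D3:**
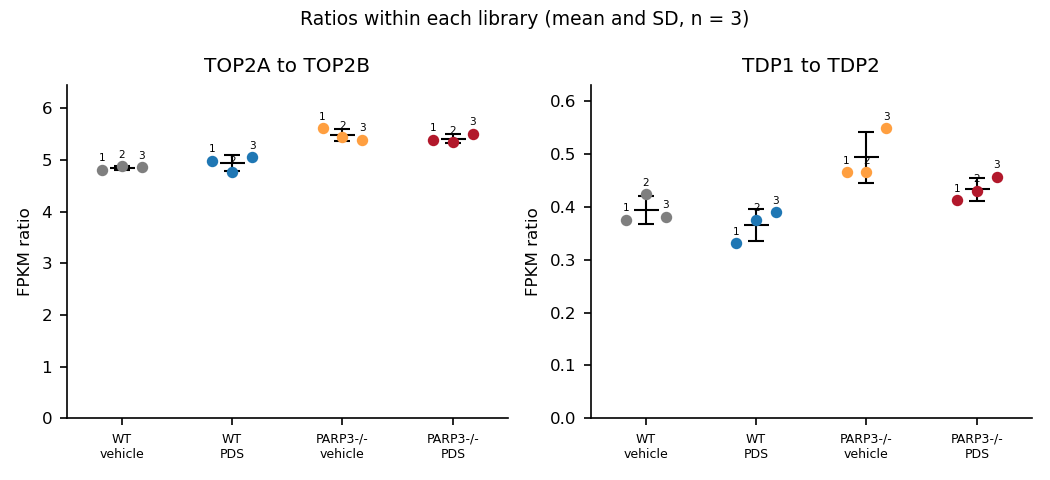
FPKM ratio of TOP2A to TOP2B (left) and of TDP1 to TDP2 (right) within each library, with mean and SD (n = 3) and linear axes from 0. TOP2A to TOP2B was 4.77 to 5.06 in the wild-type libraries and 5.34 to 5.62 in the PARP3-/- libraries.

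The corresponding ratio of TDP1 to TDP2 was 0.394 ± 0.0266 and 0.365 ± 0.0308 in wild type (vehicle and pyridostatin, SD, n = 3) and 0.494 ± 0.0479 and 0.433 ± 0.0222 in PARP3-/-. Its log2 value was 0.29 higher in PARP3-/- (exact permutation p = 0.005), TDP2 being the gene of the pair that was called. Over all libraries the genotypes overlapped in this ratio. PARP3-/- pyridostatin replicate 1 (0.413) lay below wild-type vehicle replicate 2 (0.424). With pyridostatin the ratio of TDP1 to TDP2 was lower by a log2 difference of -0.15 (exact permutation p = 0.055). In all, 4 ratio comparisons were made. Adjusted over these 4 by Benjamini-Hochberg, the exact permutation p was 0.01 for both genotype differences, and for pyridostatin it was 0.0733 (TDP1 to TDP2) and 0.86.

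TOP1 and TOP3A are members whose genotype difference was not called. TOP1 was at 44.8, 36.9 and 43.4 FPKM in wild type and 43.6, 42.7 and 41.2 in PARP3-/- with vehicle. With pyridostatin it was at 43.8, 43.3 and 44.3 FPKM in wild type and 39.6, 40.6 and 41.6 in PARP3-/-. The pyridostatin groups did not overlap, as was so for 35.2% of all genes tested, and the log2 fold change was -0.11 (adjusted p = 0.334). Without wild-type vehicle replicate 2 TOP1 was called lower with pyridostatin (-0.11, adjusted p = 0.0328) and averaged over treatments (-0.08, adjusted p = 0.0248), and not with vehicle. In that fit 19.3% and 27.2% of all genes were called in the first 2 of these comparisons. TOP3A, the type IA enzyme that works with the BLM helicase, ran from 9.21 to 10.8 FPKM in wild type and from 10.5 to 11.5 in PARP3-/-. Its averaged log2 fold change was 0.10 (95% CI 0.0117 to 0.186, adjusted p = 0.113), and 0.07 without wild-type vehicle replicate 2 (adjusted p = 0.111). TOP3B, TOP1MT and TDP1 had averaged log2 fold changes of 0.07, 0.04 and 0.02 between genotypes, none of them called.

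**Figure D4:**
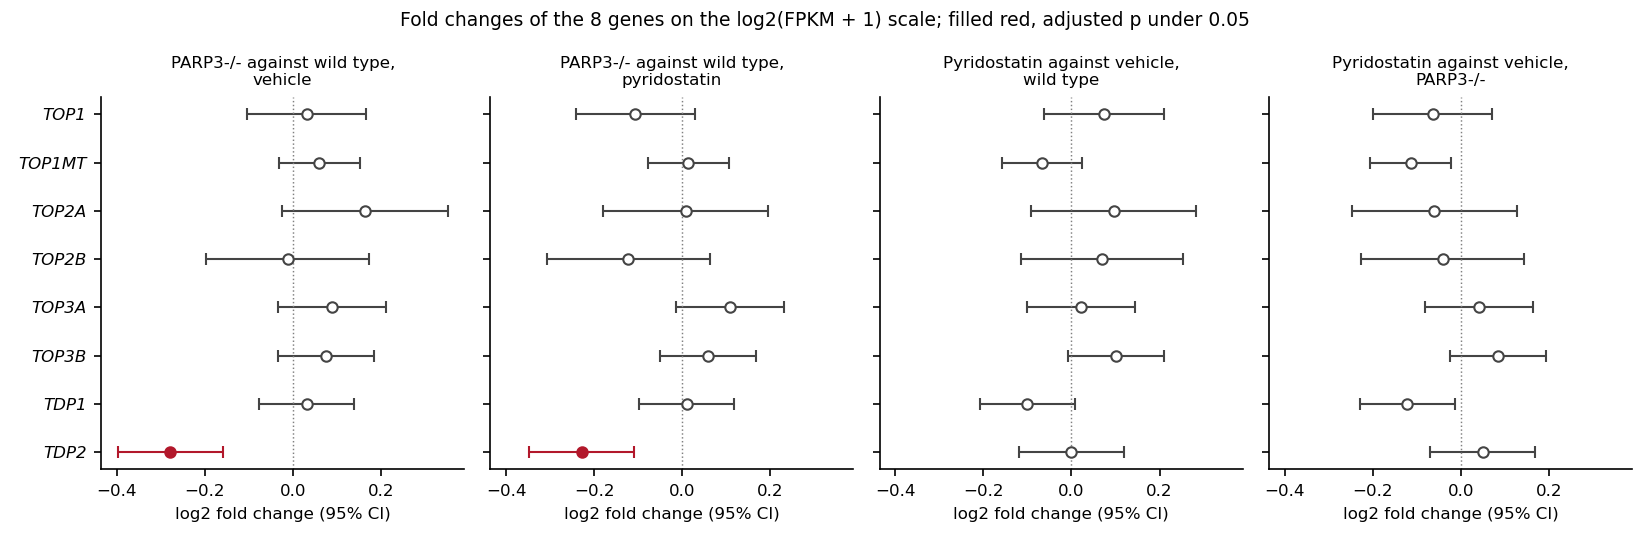
Log2 fold changes with 95% confidence intervals of the 8 genes in the 4 pairwise comparisons, on the log2(FPKM + 1) scale (limma). Filled red points have an adjusted p under 0.05. TDP2 was called in both genotype comparisons (-0.28 and -0.23) and no gene in either pyridostatin comparison.

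Pyridostatin changed no member past the threshold. None of the 8 was called in wild type, where 4.17% of all genes tested were called, or in PARP3-/-, where 5.56% were. The unadjusted p was under 0.05 for 0 and 2 members, against 20.3% and 19.6% of all genes. Averaged over genotypes again 0 of 8 were called, against 13.9% of all genes. There 3 members had an unadjusted p under 0.05, against 28.9% of all genes. The absolute log2 fold changes reached at most 0.12 in these comparisons. The effect of pyridostatin was not shown to depend on genotype. For the interaction 0 of 11881 genes (0%) passed, and 521 (4.39%) had an unadjusted p under 0.05. The smallest adjusted p of a member for the interaction was 0.999.

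The largest of these differences were in TDP1, TOP1MT and TOP3B. TDP1 was at 10.9, 11.8 and 11.1 FPKM with vehicle and 9.92, 10.8 and 10.6 with pyridostatin in wild type. In PARP3-/- it was at 11.2, 11.5 and 11.8 FPKM with vehicle and 9.89, 10.8 and 10.8 with pyridostatin. The 6 vehicle libraries ran from 10.9 to 11.8 FPKM and the 6 pyridostatin libraries from 9.89 to 10.8, without overlap, as was so for 6.66% of the genes tested. The averaged log2 fold change of TDP1 was -0.11 (95% CI -0.187 to -0.0347), which missed the threshold with adjusted p = 0.0571. TDP1 passed it under quantile normalisation (-0.13, adjusted p = 0.0325) and with a common median (-0.14, adjusted p = 0.0312).

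TOP1MT ran from 17.1 to 19.3 FPKM over the vehicle libraries and from 16.2 to 17.7 over the pyridostatin libraries. Its averaged log2 fold change was -0.09 (95% CI -0.155 to -0.0257, adjusted p = 0.0657). With a common median TOP1MT was called (-0.12, adjusted p = 0.0373). TOP3B ran from 5.65 to 6.42 FPKM with vehicle and from 6.23 to 7.18 with pyridostatin. Its averaged log2 fold change was 0.09 (adjusted p = 0.104), and without wild-type vehicle replicate 2 it was called (0.11, adjusted p = 0.0468), as were 19.2% of all genes in that fit. TOP2A, TOP2B, TOP1, TOP3A and TDP2 had averaged log2 fold changes of 0.02, 0.01, 0.00, 0.03 and 0.03.

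The pathway genes around the members were read from fixed lists of 84 genes in all, each with a mean of at least 1 FPKM. The shares of all genes called lower with pyridostatin were 1.38% in wild type, 2.52% in PARP3-/- and 6.24% averaged over genotypes, and those called higher 2.79%, 3.05% and 7.71%. Between genotypes 9.41% were called with vehicle, 10.9% with pyridostatin and 19.1% averaged over treatments, of which 3.01%, 3.85% and 6.95% of all genes were lower. Without wild-type vehicle replicate 2, the genotype shares were 14%, 19.3% and 27.2%. For pyridostatin they were then 5.98%, 13.1% and 19.2%. These shares are the background for the counts that follow, which describe the lists and were not tested against other genes.

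Some of the 9 condensin and other mitotic chromosome genes whose products work beside TOP2A were called lower with pyridostatin, and TOP2A itself was not called. In PARP3-/- 5 of 9 were called lower and 0 higher (3 lower under quantile normalisation), and their median was -0.22 on the log2 scale. The largest were the condensin subunit genes NCAPG2 (-0.25, adjusted p = 0.0353) and NCAPG (-0.25, adjusted p = 0.0224) and the chromokinesin gene KIF4A (-0.25, adjusted p = 0.00886). In wild type 0 of 9 were called, 3 with an unadjusted p under 0.05 and a median of -0.09, NCAPG having the largest value (-0.21, adjusted p = 0.0542). None of the interactions was called. Averaged over genotypes 6 of 9 were called lower, with NCAPG at -0.23 and NCAPH at -0.17. TOP2A had a log2 fold change of 0.02 in the same comparison (95% CI -0.115 to 0.151), and of -0.05 without wild-type vehicle replicate 2 (adjusted p = 0.182). Without wild-type vehicle replicate 2 the counts were 9 of 9 in PARP3-/- (13.1% of all genes called), 3 in wild type (5.98%) and 8 averaged (19.2%).

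G2 and mitosis genes showed the same direction. With pyridostatin the log2 fold change was negative for 19 of 21 in wild type and for 20 of 21 in PARP3-/-. In wild type 3 of 21 were called lower. These were CDC20, the activator of the anaphase-promoting complex (-0.27, adjusted p = 0.0497), the kinase gene AURKB (-0.27, adjusted p = 0.0493) and the kinesin gene KIF20A (-0.19, adjusted p = 0.0497). In PARP3-/- 9 of 21 were called lower, led by KIF20A (-0.34, adjusted p = 0.00248), CDC20 (-0.30, adjusted p = 0.0274) and the spindle checkpoint kinase gene TTK (-0.26, adjusted p = 0.0139). Averaged over genotypes 13 of 21 were called lower and 0 higher, with a median of -0.15. Between genotypes the counts were 0 with vehicle, 2 with pyridostatin (KIF20A and AURKA, both lower in PARP3-/-) and 5 averaged over treatments, of which AURKB was higher (0.17, adjusted p = 0.0230) and 4 were lower, CCNB1 among them (-0.14, adjusted p = 0.0341). The 5 of 21 were near the 19.1% of all genes called in that comparison. With wild-type vehicle replicate 2 left out, 5 of 21 were called with pyridostatin in wild type, 17 in PARP3-/- and 17 averaged over genotypes, all lower, and 2, 11 and 10 in the genotype comparisons. All genes were called more often in that fit too, with shares of 5.98%, 13.1% and 19.2% for pyridostatin and 14%, 19.3% and 27.2% for genotype. In bulk RNA, fewer cells in mitosis and less RNA per cell cannot be told apart.

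The p53 targets moved most. With pyridostatin 5 of 6 were called higher in wild type and 6 of 6 in PARP3-/-, with median log2 fold changes of 0.86 and 0.90. All 6 had a positive log2 fold change in both genotypes. BTG2, an antiproliferative gene, rose by 1.21 and 1.08 and CDKN1A, the p21 inhibitor of cyclin-dependent kinases, by 1.14 and 1.05. The members reached at most 0.12 in size in the same comparisons. Between genotypes 1 of 6 was called within each treatment, GADD45A, higher in PARP3-/- (0.31, adjusted p = 0.0126, with vehicle and 0.29, adjusted p = 0.0170, with pyridostatin). Averaged over treatments 3 of 6 were called higher (GADD45A, BTG2 and CDKN1A), where 19.1% of all genes were called, and 1 with a common median. With wild-type vehicle replicate 2 left out, the counts were 2 with vehicle, 2 with pyridostatin and 3 averaged.

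**Figure D5:**
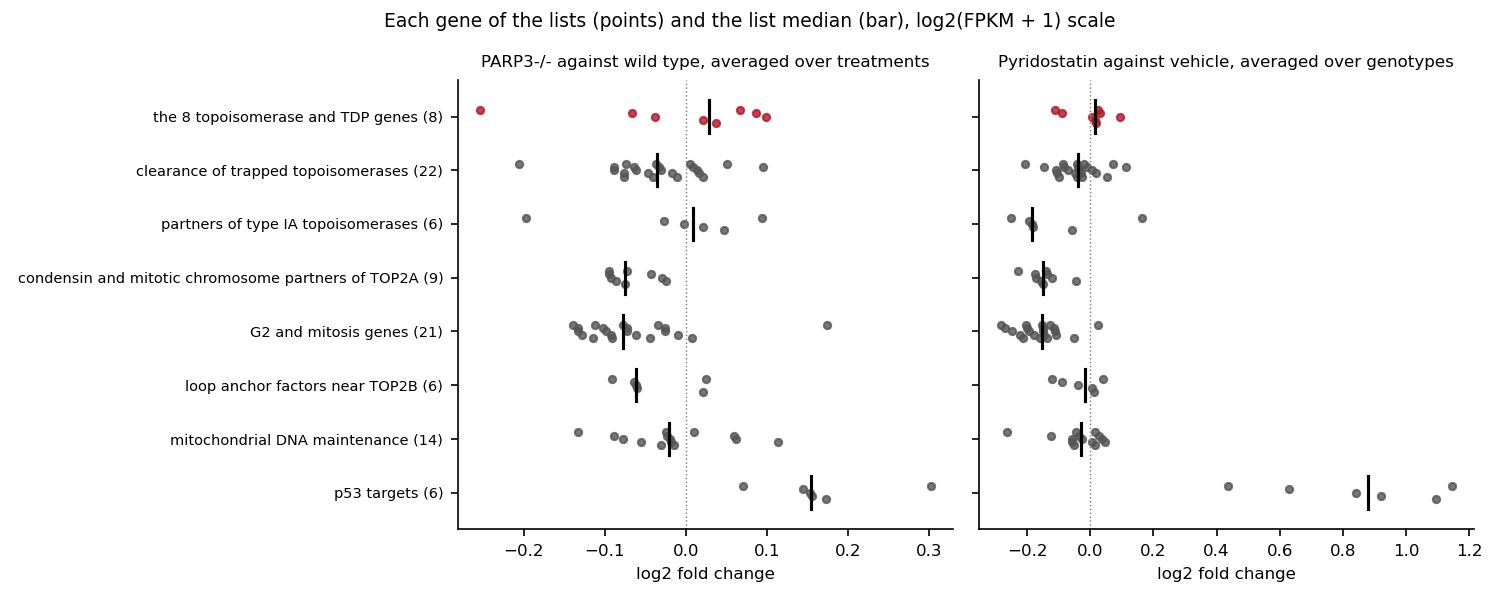
Log2 fold changes of each gene (points) of the 8 members (red) and of the 7 lists (grey, number of genes in brackets), with the list median as a bar, for the genotype comparison averaged over treatments (left) and the pyridostatin comparison averaged over genotypes (right). Each panel has its own linear axis. The p53 targets rose with pyridostatin by a median of 0.88, and the condensin list had a median of -0.15.

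Of 22 genes that clear trapped topoisomerases or repair the breaks they leave, those called were all lower. With pyridostatin 1.38% of all genes were called lower in wild type and 2.52% in PARP3-/-. Of the 22, 0 were called in wild type and 4 in PARP3-/-. These included EME1, which encodes the partner of the MUS81 nuclease (-0.27, adjusted p = 0.0434), RBBP8, which encodes the end-resection factor CtIP (-0.22, adjusted p = 0.0253), and PARP1, which encodes the main poly(ADP-ribose) polymerase (-0.16, adjusted p = 0.0258). Averaged over genotypes 5 were called lower, where 6.24% of all genes were. Among the 5 was XRCC1, the scaffold of single-strand break repair in which TDP1 works (-0.11, adjusted p = 0.00909). Between genotypes 0 were called with vehicle and 1 with pyridostatin, POLB, the gap-filling polymerase gene (-0.26, adjusted p = 0.0380). Averaged over treatments POLB (-0.21, adjusted p = 0.0153) and the ubiquitin ligase gene CUL3 (-0.09, adjusted p = 0.0490) were called lower in PARP3-/-. These 2 of 22 were near the 6.95% of all genes called lower there. Without wild-type vehicle replicate 2 the counts for pyridostatin were 1 in wild type and 7 in PARP3-/- (5.98% and 13.1% of all genes called). For genotype they were 4 with pyridostatin and 5 averaged (19.3% and 27.2% of all genes). All of these were lower.

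Partners of the type IA enzymes numbered 6. TDRD3, the scaffold protein gene of TOP3B, was lower in PARP3-/- with pyridostatin (-0.23, adjusted p = 0.0397) and averaged over treatments (-0.20, adjusted p = 0.00991), and had a log2 fold change of -0.16 with vehicle (adjusted p = 0.150). TOP3B itself was not called. RMI2, a subunit of the complex of BLM and TOP3A, fell with pyridostatin in wild type (-0.34, adjusted p = 0.00760) and averaged over genotypes (-0.25, adjusted p = 0.00256). TOP3A had an averaged value of 0.03 there. In PARP3-/- 0 of the 6 partners were called with pyridostatin, ERCC6L having the largest value (-0.28, adjusted p = 0.0569), and without wild-type vehicle replicate 2 the count there was 3, all lower. In that fit 1, 2 and 2 partners were called in the genotype comparisons, 1 of them higher in each of the last pair, and 2 and 4 with pyridostatin in wild type and averaged.

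Among 14 genes of mitochondrial DNA maintenance, the setting of TOP1MT, PRIMPOL fell with pyridostatin in wild type (-0.23, adjusted p = 0.0236) and in PARP3-/- (-0.30, adjusted p = 0.00437). It encodes a primase and polymerase that acts in the nucleus too. No other gene of that list was called in those comparisons. Between genotypes 0 were called with either treatment, and averaged over treatments 1 was, the mitochondrial transcription factor gene TFB2M (-0.08, adjusted p = 0.0269). The count for pyridostatin in PARP3-/- was 3 without wild-type vehicle replicate 2. Of the 6 CTCF and cohesin genes that mark the loop anchors where TOP2B is found, 0 were called in any comparison. Without wild-type vehicle replicate 2, the counts called lower in PARP3-/- were 2 with vehicle, 1 with pyridostatin and 4 averaged over treatments. In that fit 14%, 19.3% and 27.2% of all genes were called in these comparisons. The counts called lower with pyridostatin were then 1 in wild type, 2 in PARP3-/- and 2 averaged over genotypes. Of all genes 5.98%, 13.1% and 19.2% were called there. With a common median and all libraries, 1 was called lower with pyridostatin averaged over genotypes. A link to TOP2B was not tested.

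Among all genes tested, the one whose log2 level followed each other member most closely over the 12 libraries was DDX46 for TOP1 (r = 0.971), HNRNPDL for TOP1MT (r = 0.941), TTC3 for TOP2A (r = 0.978), AHCTF1P1 for TOP2B (r = 0.972), NFKB1 for TOP3A (r = 0.958), SLC25A12 for TOP3B (r = 0.916) and PPAP2C for TDP1 (r = 0.951). AHCTF1P1 shares sequence with AHCTF1, so that its level is uncertain. The r of TOP2A with TTC3 was 0.778 without wild-type vehicle replicate 2, so this likeness rested largely on that library, whereas the others stayed at or above 0.911.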

How the data were processed

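The 12 libraries were mapped to the 4 groups and their replicates through the sample labels, and every value column was used. The authors prepared stranded mRNA libraries, read 75 bases from a single end, and deposited 1 column of FPKM per library, credited to cufflinks in the table. Their processing notes name bcl2fastq 2.16, STAR 2.5 and Cufflinks (no version given), and the builds hg19 and mm9. The study's own tests on read counts were not used here. Scaling by length and mapped reads is thus already in the values, and a bias with transcript length in a library remains in them. FPKM carries no counts, so intervals describe replicates, and precision rests on 3 libraries per group.

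Genes averaging at least 1 FPKM (11881 of 25365 names) were fitted as log2(FPKM + 1), unscaled, with limma 3.58.1 in R 4.3.3 (one model of 4 groups, eBayes with trend, Benjamini-Hochberg adjustment). The 7 contrasts were the genotype and pyridostatin comparisons within and averaged over the other factor, and their interaction. Ratios of paired genes were compared by exact permutation within the other factor (400 arrangements). The fits were tested on simulated data. Named genes were the members, PARP3, divergent protein-coding neighbours with starts within 1000 bases, up to 3 called genes with the largest change per list and contrast (otherwise the gene with the largest change), and the genes most correlated with each member, 1 of which is not reported here. The members and lists were chosen with earlier results of these data known. The alternatives are named in the closing section. The lists, ACOT13 and SMCR8 under other settings were added after seeing the data. Transcript lengths came from GENCODE release 29 and promoter windows from RefSeq (GRCh38.p14). Python 3.11.15, numpy 2.4.6, pandas 2.3.3 and matplotlib 3.10.9 were used.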

Additional observations from a re-analysis of the deposited data

How the results depend on the processing

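The alternatives were a pseudocount of 0.1, no filter, a mean of at least 5 FPKM, quantile normalisation, a common median, only the libraries of the comparison, a replicate block, an untrended eBayes, each library left out, and for the ratios FPKM + 1. Of 1096 member fold changes under the alternatives, 5 lost a call, 12 gained one and 0 called values changed sign, while 50 values that were not called had the other sign. Fitting only the libraries of the comparison called 0 members between genotypes with vehicle and 2 with pyridostatin. For pyridostatin averaged over genotypes, quantile normalisation called 1 member (TDP1), a common median 2 (TDP1 and TOP1MT) and the replicate block 1 (TDP1, -0.11, adjusted p = 0.0281). The same-numbered libraries correlated by -0.12 to 0.216 in their deviations, so the numbers were not taken to pair cultures, and the replicate block changed no other call of a member.

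With each library left out in turn, the members called ranged from 1 to 2 between genotypes with vehicle, from 0 to 3 with pyridostatin and from 1 to 3 averaged over treatments, and from 0 to 1 for pyridostatin averaged over genotypes. The upper values came without wild-type vehicle replicate 2, and the call for TOP1MT without wild-type pyridostatin replicate 3 (-0.11, adjusted p = 0.0452). The log2 ratio of TOP2A to TOP2B for pyridostatin ran from -0.0055 to 0.016 and changed sign in 4 of these fits, and that of TDP1 to TDP2 ran from -0.17 to -0.11, with p from 0.015 to 0.115. The genotype differences of both ratios kept their direction and their side of the threshold. The lower ACOT13 with vehicle lost its call in 13 of the 20 alternatives and kept its direction. The cause of these changes was not tested.

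The values hold no counts, so the depth behind a single value is not known. With 3 libraries a group, 1 library decided whether several of the smaller differences were called, as for TOP2B and TOP1. Between genotypes with pyridostatin, their log2 fold changes were -0.12 and -0.11 with wild-type vehicle replicate 2 and without it.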
